A study of Homo sapiens with 8 samples.

Results

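Replication-dependent histone genes were taken as every row of the deposited tables whose symbol starts with HIST1H, HIST2H, HIST3H or HIST4H. The rule found 72 rows among 23621 gene rows: 6 of linker histone H1, 18 of H2A, 20 of H2B, 13 of H3 and 15 of H4. RNA sequencing measured them in the human line NALM6, grown from a B-cell acute lymphoblastic leukemia, in 4 groups of 2 libraries: SE DOX, SE vehicle, WT DOX and WT vehicle. WT cells carried an inducible construct for wild-type HMGN1, a protein that binds nucleosomes, and SE cells carried one for its S20,24E mutant, which is deficient in that binding. DOX libraries came from cells given doxycycline at 100 ng/ml for 6 hours to induce the construct, and vehicle libraries from cells given vehicle for the same time. Every group holds 1 library of biological replicate A and 1 of biological replicate B. All come from this 1 line, and neither the number of clones nor whether A and B are separate cultures is given in the sources used here. Spike-in RNA of the ERCC set went into each sample of equal cell number.

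Replication-dependent histone genes are intronless, lie in clusters and are transcribed in S phase, when new DNA has to be packed into nucleosomes. Most of their transcripts carry no poly(A) tail and end just after a conserved stem-loop that is bound by SLBP, and NPAT, a substrate of cyclin E and CDK2, drives their transcription at histone locus bodies. H2A, H2B, H3 and H4 form the nucleosome core and H1 binds the linker DNA, so libraries made by selecting poly(A) RNA, as the kit used here does, hold only part of these transcripts: some members can also be made as longer, polyadenylated RNAs.

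The stem-loop that sets most of these transcripts apart from other mRNAs was found in an annotated transcript of 31 of the 72 members in GENCODE release 29, and 22 members had a transcript that runs on for at least 100 bases beyond it. Many of the other annotated transcripts stop at the end of the coding region, so a member without a match is not shown to lack the loop. The windows of 5 members with values described further on are printed here, with the 6-base stem, the 4-base loop and the second strand of the stem in capitals; their DNA letters come from GENCODE.
HIST1H4J: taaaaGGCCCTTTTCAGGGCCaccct
HIST1H4I: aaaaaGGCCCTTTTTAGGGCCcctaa
HIST2H2AA3: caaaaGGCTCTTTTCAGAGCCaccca
HIST2H2BC: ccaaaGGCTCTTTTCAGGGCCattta
HIST1H2BC: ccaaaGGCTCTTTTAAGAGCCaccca
The annotated HIST1H4J transcript ends 6 bases after the loop and that of HIST2H2AA3 35 bases after it. Transcripts of HIST1H4I, HIST2H2BC and HIST1H2BC run on for 212, up to 5804 and 116 bases. Across all families, the 27 members with such a longer or a spliced annotated transcript had a median of 0.688 unnormalized FPKM (a fragment count divided by transcript length and by library depth) and the other 45 members a median of 0.48. The 6 H1 members have no such transcript in this annotation, against 13 of the 20 H2B members. The member of highest level, HIST1H2BK, is also among those without one. The transcripts used for the deposited FPKM can differ from this annotation. By the fragments recovered further on, 1 fragment in WT vehicle A was worth 0.02653 FPKM for HIST1H2BK but 0.07032 for HIST1H2BM. Both are annotated here at 381 bases. The split into 27 and 45 members may thus not describe the transcripts measured.

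The promoters of these genes share short elements by family. RefSeq promoters (GRCh38.p14, from 250 bases before to 50 bases after the start) were matched for 59 members. CCAAT, searched on both strands like the other motifs, occurred in each of the 46 promoters of H1, H2A, H2B and H3 but in 3 of 13 H4 promoters, against 35.4% of all 27305 RefSeq promoters of that length. The octamer ATTTGCAT occurred in 11 of 16 H2A and 9 of 13 H2B promoters and in no H1, H3 or H4 promoter, against 1.83% of all. The windows of some H2A and H2B members overlap, such as those of HIST1H2AG and HIST1H2BJ, so the same octamer can count for both. AAACACA, the H1 box, occurred in 6 of 6 H1 promoters against 5.79% of all, and TATAAA in 39 of 59 members against 12.3%. The 140 bases before the start are printed for 3 members that differed between libraries in the values that follow, with these motifs in capitals: HIST1H2BK (chr6:27146856-27146995, minus strand), HIST1H4J (chr6:27823952-27824091, plus strand) and HIST1H1C (chr6:26056471-26056610, minus strand).
HIST1H2BK: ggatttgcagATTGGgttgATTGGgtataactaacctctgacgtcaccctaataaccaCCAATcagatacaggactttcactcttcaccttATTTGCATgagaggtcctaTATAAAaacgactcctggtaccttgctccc
HIST1H4J: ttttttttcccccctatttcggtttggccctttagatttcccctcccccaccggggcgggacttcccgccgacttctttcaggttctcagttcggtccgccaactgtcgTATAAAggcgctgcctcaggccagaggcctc
HIST1H1C: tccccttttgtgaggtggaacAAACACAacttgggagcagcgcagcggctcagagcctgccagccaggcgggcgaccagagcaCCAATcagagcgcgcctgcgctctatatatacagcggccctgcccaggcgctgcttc

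Before the results, a few facts of the libraries bear on them. The HMGN1 row was not higher with DOX: it stood at 1420 and 1060 unnormalized FPKM in the SE DOX libraries A and B against 1430 and 1070 in SE vehicle, and at 793 and 795 in WT DOX against 809 and 796 in WT vehicle. The libraries labelled DOX are therefore named by that label, and the row can hold both the cell's own transcript and any construct transcript that maps to it. The 14 B-lineage markers all had a mean of at least 1, with a summed level of 2330 to 2780 unnormalized FPKM, while none of 6 T-cell, 5 erythroid and 4 stromal markers did and their summed levels were at most 0.41; of 5 myeloid markers 1 did. Spike-in rows summed to 7050 to 7166 per library after normalization, against 5675 to 10042 before, and this scaling shifts whole libraries, so medians of the histone rows are set beside those of all genes tested.

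Histone rows were low. Their unnormalized FPKM summed to 77 to 126 over the 8 libraries, 0.0067% to 0.0134% of the FPKM of all genes. Of the 72 rows, 6 were listed at 0 in every library, among them HIST1H2AA and HIST1H2BA, known as testis histones, and a further 6 were above 0 in 1 or 2 libraries, among them HIST1H1A and the testis linker histone HIST1H1T. The other 60 were above 0 in at least 3 libraries and 56 in all 8. The rule also takes in 3 rows that GENCODE lists as pseudogenes, of which HIST2H2BC was among the highest.

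Low values of this kind still hold their read counts. In 57 of the 60 rows above 0 in at least 3 libraries, the 8 values were whole multiples of 1 smallest step once the libraries were put on a common depth, with a largest deviation of 0.024 of a step at a tolerance of 0.06; the exceptions were HIST1H2AD, HIST1H2BD and HIST1H3D. With that step taken as 1 fragment, the rows had a median of 10 fragments per library; 11 rows had at most 10 in every library and 47 at most 50, and the highest value was 676, of HIST1H2BK. Relative depth ran from 0.757 in WT vehicle B to 1.141 in SE DOX A, taking WT vehicle A as 1. Over all genes with low values, 56.8% of 3440 rows came out whole, so no count test was run, and the fragments serve only to show how much counting error stands behind a value. Intervals on them are exact Poisson intervals at 95% and cover counting error only.

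**Figure D1:**
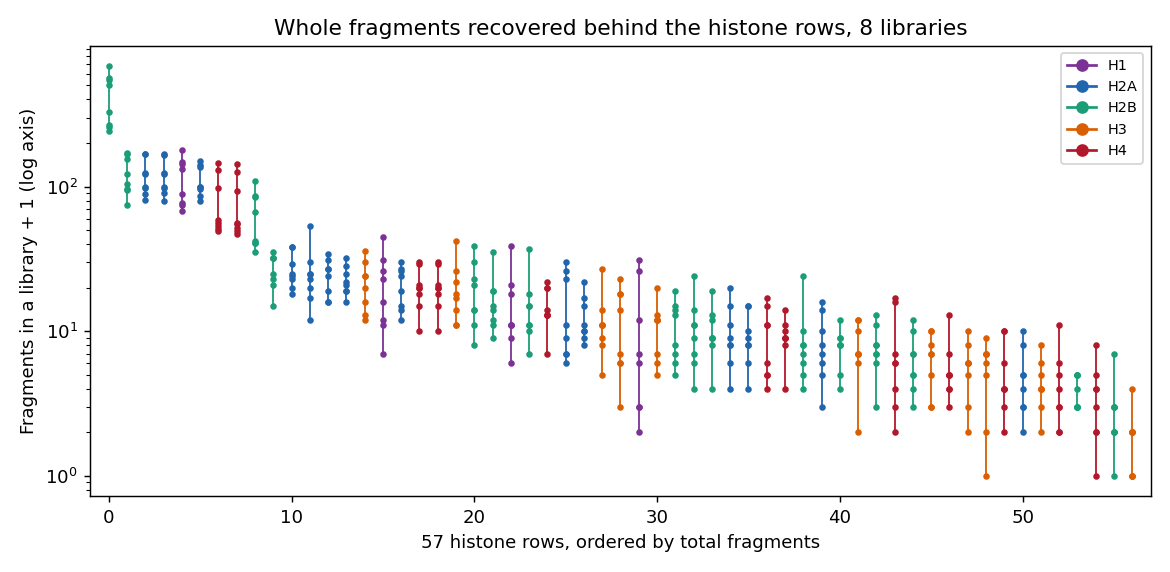
Fragments recovered in each of the 8 libraries (points, plus 1, log axis) for the 57 histone rows that came out whole, ordered by their total and coloured by family; each line spans the lowest and the highest library. The row at the left is HIST1H2BK, with 240 to 676 fragments, and most rows lie under 50.

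By family, H2A, H2B and H4 rows held most of the signal. H2A rows summed to 26.2 to 38.7 unnormalized FPKM over the libraries, H2B rows to 21.8 to 40.1 and H4 rows to 20.2 to 39.8. H3 rows summed to only 4.46 to 9.88, with 13 of 13 rows above 0 in some library but 2 with a mean of at least 1, and H1 rows to 2.82 to 7.92. Of the H1 members, HIST1H1C averaged 3.79 unnormalized FPKM over the 8 libraries, ahead of HIST1H1B at 0.6 and HIST1H1E at 0.446.
HIST1H2BK, an H2B gene, was the highest row at an average of 11.7 unnormalized FPKM, and HIST1H4J and HIST1H4K, both H4, followed at 9.31 and 9.1. All stretches of 50 bases in the HIST1H4K transcript also occur in HIST1H4J, so the division of reads between these rows is uncertain. The same holds for the H2A pair HIST2H2AA3 and HIST2H2AA4, at 6.4 and 6.38, and the H4 pair HIST2H4A and HIST2H4B, whose values were equal in all libraries; these 3 pairs count as 6 of the rows tested. HIST1H2AJ shares 83.7% of its 50-base stretches with HIST1H2AI, which shares 62.3% with it, so these tested H2A rows are uncertain too. HIST1H4J and HIST1H4K had nearly the same recovered fragments, 145 and 141 in WT DOX A and 48 and 46 in WT vehicle B. The same reads may thus be counted in both rows of a pair, and sums over rows would then hold them more than once. HIST2H2AC, an H2A gene, averaged 8.5, HIST2H2BC 5.75 and HIST1H2BL, an H2B gene, 1.88. The H3 rows of highest level were HIST1H3C at 1.49, HIST1H3H at 1.28 and HIST1H3B at 0.717; HIST1H3G, at 0.688, came ahead of HIST1H3B on the normalized mean, at 0.81 against 0.805.

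**Figure D2:**
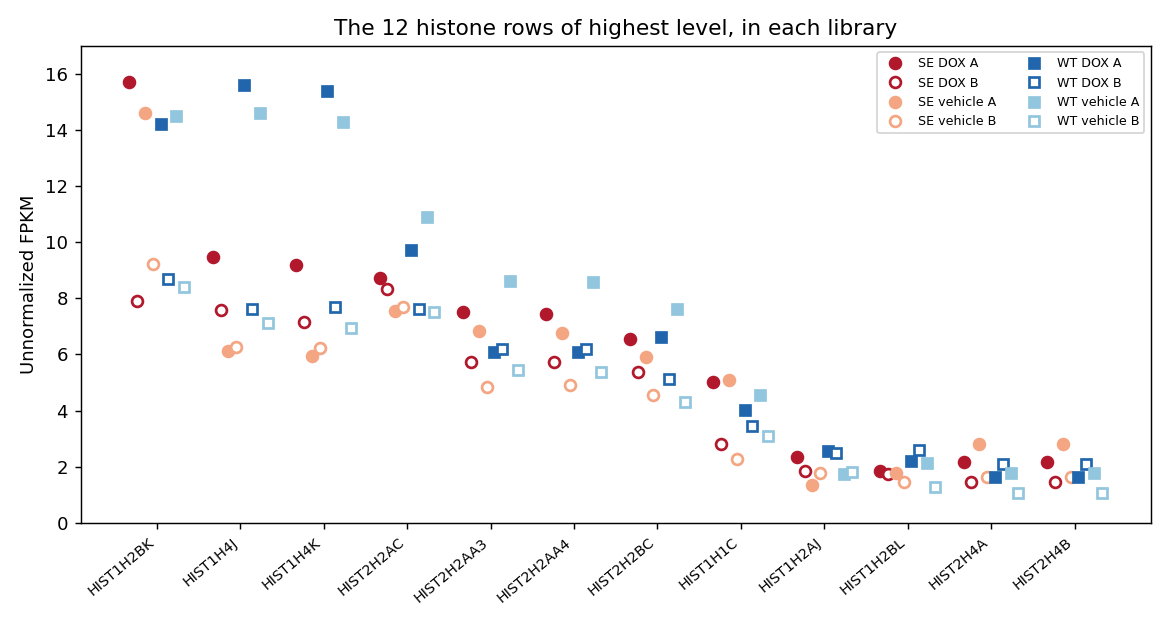
Unnormalized FPKM of the 12 histone rows of highest mean level; each point is 1 library, red circles for SE and blue squares for WT, dark for DOX and light for vehicle, filled for A and open for B. The 4 A libraries of HIST1H2BK lie above its 4 B libraries, while for HIST1H4J only the A libraries of WT stand apart.

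For the tests, 24 rows with a mean normalized FPKM of at least 1 were kept, out of 11465 genes: 1 of H1, 8 of H2A, 6 of H2B, 2 of H3 and 7 of H4. The lowest row kept was HIST1H4H at a mean of 1.01 and the highest left out was HIST1H2AH at 0.969. All tests are limma on log2(normalized FPKM + 0.1), two-sided, with Benjamini-Hochberg adjustment over all genes tested, and a row is called when its adjusted p is under 0.05; adding 0.1 makes fold changes of low rows too small. With 2 libraries a group, p-values rest on 1 spread per gene, pooled over the 8 libraries and drawn toward that of genes of like level. For DOX and construct it is the spread of libraries within groups. For A against B it is what construct, letter and treatment leave over.

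In the fit of the 4 group means, no histone row was called for DOX against vehicle in either construct. With the letter added as a replicate block, 4 of 24 rows were called in SE cells (16.7%, against 14.5% of all genes). In WT cells that fit called 0 rows, against 1.58% of all genes. With genes named as small RNAs also left out and library medians set equal, it called 0 in both constructs. The values that follow are of the fit of group means. In SE cells limma called 0 of 24 rows, against 0.0523% of all genes, and none had an unadjusted p under 0.05; the median log2 difference was -0.07 for the histone rows and -0.24 for all genes. The row of smallest p was HIST1H2BC, an H2B gene, with a normalized FPKM of 1.83 and 1.05 in the SE DOX libraries A and B against 1.02 and 0.631 in SE vehicle. The groups do not overlap, but SE DOX B lies only just above SE vehicle A. Within each letter the DOX library lay above the vehicle library. Its log2 difference was 0.72 ± 0.43 (standard error; 95% interval -0.24 to 1.68; limma adjusted p = 0.537). HIST2H4A and HIST2H4B followed at -0.47, with intervals of -1.19 to 0.25.
In WT cells 0 of 24 rows were called as well, against 0.0698% of all genes, again with none under 0.05 before adjustment, and the medians were 0.04 for the histone rows and -0.03 for all genes. HIST1H4E, an H4 gene, had 2.43 and 1.61 normalized FPKM in WT DOX A and B against 1.7 and 0.967 in WT vehicle, a log2 difference of 0.59 (interval -0.18 to 1.35). HIST1H2BL differed by 0.49 (-0.17 to 1.14) and HIST1H2AJ, an H2A gene, by 0.45 (-0.11 to 1.02), each with an adjusted p of 1 by limma. The DOX and vehicle libraries overlap for HIST1H4E and not for the other 2 rows. Within each letter, HIST1H4E was higher with DOX.
The DOX effect in SE cells less that in WT cells was called for 0 of 24 rows, against 0.0785% of all genes, with none under 0.05 before adjustment and medians of -0.07 and -0.21. The 3 rows of smallest p, HIST2H4A, HIST2H4B and HIST1H4E, all stood at -0.83, with intervals that reach from -1.84 to 0.19 for the first pair and from -1.92 to 0.25 for HIST1H4E. The intervals of the named rows leave room for differences of more than 0.5 on the log2 scale, so the libraries are too few to show that DOX left these genes alone.

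Histone rows were lower in SE than in WT cells on the normalized scale, along with most genes. With DOX, limma called 0 of 24 rows against 0.105% of all genes, 5 rows had an unadjusted p under 0.05, and the median was -0.53 for the histone rows and -0.53 for all genes. With vehicle, it called 0 of 24 against 0.183%, 4 rows were under 0.05 before adjustment, and the medians were -0.48 and -0.32. HIST1H3C, the leading H3 gene, had the smallest p in both. It was lower in SE by a factor of 2 with DOX (log2 interval -1.68 to -0.32; limma adjusted p = 0.0765), and with vehicle its log2 difference was -1.37 (interval -2.05 to -0.69; limma adjusted p = 0.334). The following rows with DOX were HIST1H2AJ at -0.77 and HIST1H2BL at -0.89, and with vehicle HIST1H2BC at -1.06 and HIST1H4J at -1.02. These counts of 0 moved with the settings: robust eBayes called 8 rows with DOX (33.3%, against 42.3% of all genes) and 2 with vehicle (8.33% against 1.01%), and leaving out genes with names of small RNAs gave 3 (12.5% against 4.66%) and 1 (4.17% against 0.493%).
Averaged over both treatments, 10 of 24 rows were called, each lower in SE cells, against 60.5% of all genes in either direction and 60.1% in the lower one. The share of the histone rows was thus below the background, and the median of -0.53 compares with -0.43 over all genes. The called rows were the H3 gene HIST1H3C, the H2A genes HIST1H2AI, HIST1H2AJ, HIST2H2AA3, HIST2H2AA4 and HIST2H2AC, the H2B genes HIST1H2BC and HIST1H2BL, and the H4 genes HIST1H4J and HIST1H4K, with log2 differences of -1.19 to -0.48 and limma adjusted p-values of 0.0401 to 0.0468.
HIST1H3C had 1.06, 1.1, 0.872 and 0.87 normalized FPKM in SE DOX A, SE DOX B, SE vehicle A and SE vehicle B, against 2.98, 1.71, 2.5 and 2.33 in the same order of WT libraries. The 4 SE libraries all lie under the 4 WT libraries. Its log2 difference was -1.19 ± 0.21 (standard error; interval -1.67 to -0.70; limma adjusted p = 0.0401), a level 2.27 times lower in SE. On the unnormalized scale the libraries also kept apart, at 1.34, 1.16, 0.872 and 0.786 in SE against 2.23, 1.56, 1.93 and 2.03 in WT, and behind these lie 23, 15, 12 and 11 fragments in SE and 35, 19, 29 and 23 in WT. The counting intervals of SE vehicle A, 6.2 to 21 fragments, and of WT vehicle A, 19.4 to 41.6 fragments, overlap in a narrow range. Those of SE DOX A, 14.6 to 34.5, and of WT DOX B, 11.4 to 29.7, overlap over most of their range. These fragments are not corrected for depth.
These calls changed with how libraries were scaled. With equal library medians no histone row was called, 0 of 24 against 0.436% of all genes, 1 row had an unadjusted p under 0.05, and the medians were -0.13 and -0.02; HIST1H3C then stood at -0.78 with a limma adjusted p of 0.155, in a range of 1.11e-07 to 0.155 over all 17 alternatives tried for it. In the unnormalized table limma called 0 of 22 rows tested, 1 row had an unadjusted p under 0.05, and the median was -0.10 against -0.02 over all genes. Leaving out SE DOX A, SE vehicle A, SE vehicle B or WT vehicle A each left 0 rows called, with 0.314% to 0.863% of all genes. Without WT DOX A there was 1 row (0.837% of all genes) and without SE DOX B there were 5 (77.7%), while without WT DOX B or WT vehicle B there were 14 (54.1%) and 15 (41.9%). The libraries that share a construct and a letter may come from 1 culture and then count as 1 sample, which would leave 2 samples a construct.

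**Figure D3:**
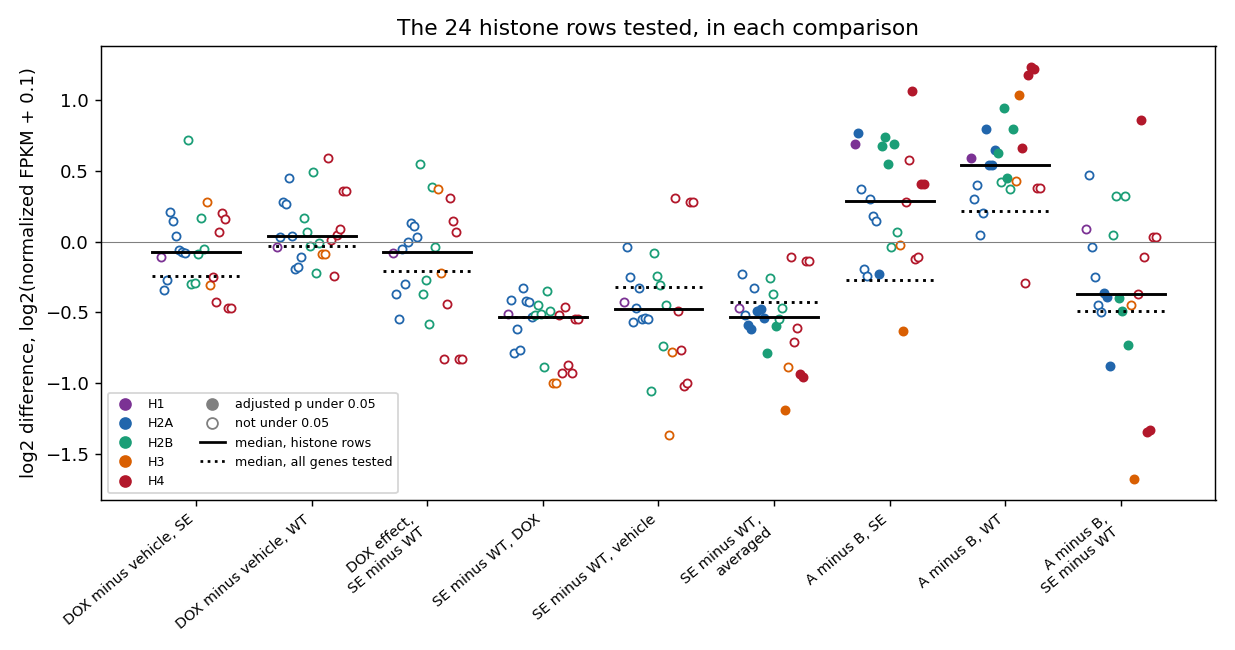
Log2 differences on the scale of log2(normalized FPKM + 0.1) for the 24 histone rows tested in each comparison, coloured by family and filled where the limma adjusted p was under 0.05; solid lines mark their median and dotted lines that of all 11465 genes. No row is filled for DOX; 14 are filled for A against B in WT cells, where the medians were 0.54 and 0.22, and 11 in SE cells, where they were 0.29 and -0.27.

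Histone rows also differed between the A and B libraries of 1 construct, which differ in no labelled condition. Over DOX and vehicle, the unnormalized FPKM of all 72 rows summed to a mean of 114 in the A and 78.7 in the B libraries of SE cells. In WT cells the sums were 123 in the A and 88.7 in the B libraries. Reads shared by rows alike in sequence may be counted more than once in these sums. Of the 66 rows above 0 in some library, 58 had the higher mean in A in SE cells and 46 in WT cells, or 87.9% and 69.7%, against 51.2% and 47.4% of all genes above 0. Both A libraries lay above both B libraries for 41 rows in SE cells, 62.1% against 31.2% of all genes, and for 20 rows in WT cells, 30.3% against 29.2%. On the normalized scale the mean was higher in A for 77.3% of rows in SE cells against 27.6% of genes, and for 74.2% in WT cells against 74.9%. Both A libraries then lay above both B libraries for 54.5% against 10.6% in SE cells and for 48.5% against 58.4% in WT cells, so the WT rows showed no excess over all genes there. Among unnormalized values, SE DOX A held the highest for 25 of these 66 rows. This was not counted over all genes or on the normalized scale, so it does not set the histone rows apart from other genes.

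**Figure D4:**
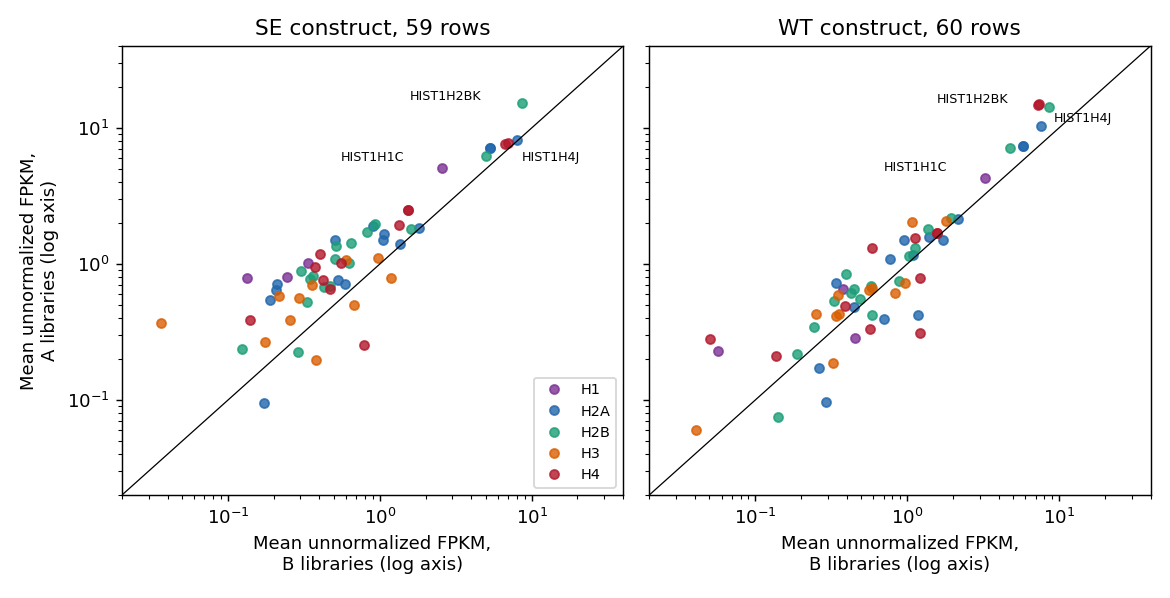
Mean unnormalized FPKM of each histone row in the A libraries against the B libraries of SE cells (left) and WT cells (right), both on log axes, coloured by family; the line marks equal levels, and rows with a mean of 0 on either axis are left out. Most points lie above the line in both panels, and HIST1H4J lies near it in SE but far above it in WT.

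In SE cells, 11 of 24 rows were called between A and B, against 57.5% of all genes. Of these, 9 were higher in A, where 2.50% of all genes were, and 2 were lower, where 55.0% of all genes were; the median was 0.29 for the histone rows and -0.27 for all genes. The higher rows were the H1 gene HIST1H1C, the H2A gene HIST1H2AC, the H2B genes HIST1H2BC, HIST1H2BD, HIST1H2BK and HIST1H2BO, and the H4 genes HIST1H4I, HIST2H4A and HIST2H4B, at 0.41 to 1.07. HIST2H4A and HIST2H4B were called in only 4 of 17 alternatives each and HIST1H2BC in 9 of 17. The lower ones were HIST1H3H at -0.63 and HIST2H2AC at -0.23. HIST2H2AC turns to 0.02 once library medians are set equal. HIST1H3H rests on few reads, 16 and 10 fragments in SE DOX A and SE vehicle A against 13 and 21 in SE DOX B and SE vehicle B. It was called in 8 of 17 alternatives, and with equal library medians it stood at -0.38 (limma adjusted p = 0.466).
HIST1H1C, the leading linker histone row, had 5.01 and 5.08 unnormalized FPKM in SE DOX A and SE vehicle A against 2.82 and 2.29 in SE DOX B and SE vehicle B. Behind these lie 179 and 146 fragments in A and 76 and 67 in B, with counting intervals that stay apart. Its log2 difference A minus B was 0.69 ± 0.11 (standard error; interval 0.46 to 0.91) on the normalized scale, and limma's adjusted p stayed under 0.05 in 17 of 17 alternatives, at 2.24e-08 to 0.0462.
The other H1 rows were too low to be tested. In SE cells HIST1H1B had 1.11 and 0.94 unnormalized FPKM in A against 0.368 and 0.308 in B, and HIST1H1E 0.966 and 0.632 in A against 0.337 and 0.155 in B. Summed over the family, H1 reached 7.69 in A and 3.28 in B in SE cells and 5.5 in A and 4.16 in B in WT cells, the widest gap of the 5 families in SE cells, at a log2 ratio of 1.23 unnormalized and 0.91 normalized.

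In WT cells, 14 of 24 rows were called between A and B, against 41.2% of all genes, and all were higher in A, where 38.5% of all genes were; the medians were 0.54 and 0.22. They were HIST1H1C, the H2A genes HIST1H2AM, HIST2H2AA3, HIST2H2AA4 and HIST2H2AC, the H2B rows HIST1H2BC, HIST1H2BK, HIST1H2BL and HIST2H2BC, the H3 gene HIST1H3H and the H4 genes HIST1H4E, HIST1H4I, HIST1H4J and HIST1H4K, at 0.45 to 1.24. HIST1H2BL was called in only 5 of 17 alternatives, HIST1H2BC in 6 of 17, HIST1H3H in 8 of 17, and HIST2H2AA3 and HIST2H2AA4 in 9 of 18. Unnormalized, WT DOX A lay below WT DOX B for HIST1H2BL (2.22 against 2.6) and HIST1H2BC (1.53 against 1.79). The same held for HIST2H2AA3 and HIST2H2AA4, both at 6.08 against 6.18. HIST1H2AM overlaps HIST1H3J and shares 86.3% of its 50-base stretches with it, so the division of reads between these rows is uncertain.
HIST1H4J had 15.6 and 14.6 unnormalized FPKM in WT DOX A and WT vehicle A against 7.61 and 7.14 in WT DOX B and WT vehicle B. In SE cells the A libraries had 9.47 and 6.13 and the B libraries 7.59 and 6.27, which overlap. The fragments behind these are 145 and 130 in A and 55 and 48 in B in WT cells, with intervals of 109 to 154 for WT vehicle A and 35.4 to 63.6 for WT vehicle B. Its log2 difference in WT was 1.24 ± 0.09 (standard error; interval 1.05 to 1.42), and it was called by limma in 18 of 18 alternatives, at 1.02 to 1.26 and adjusted p-values of 2.38e-33 to 0.00527.
HIST1H2BK had 14.2 and 14.5 unnormalized FPKM in WT DOX A and WT vehicle A against 8.7 and 8.41 in the B libraries of WT, and 15.7 and 14.6 in SE DOX A and SE vehicle A against 7.92 and 9.21 in the B libraries of SE. The A libraries lie above the B libraries in both constructs. Its log2 difference was 0.55 ± 0.10 in SE and 0.95 ± 0.10 in WT on the normalized scale, called in 18 of 18 alternatives in each construct.
With equal library medians, HIST1H2BK stood at 0.80 in SE and 0.74 in WT.
HIST2H2BC had 6.63 and 7.61 unnormalized FPKM in A against 5.11 and 4.32 in B of WT, and HIST2H2AC 9.71 and 10.9 in A against 7.63 and 7.53 in B. These were called at 0.80 and 0.65, each in 16 of 18 alternatives. HIST1H4I, at 10 and 16 fragments in A and 5 and 4 in B of WT, rests on few reads, although it was called at 1.18.

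The counts of calls between A and B moved with the fit. The fit used so far, of construct by letter plus treatment, leaves 2 residual degrees of freedom, and limma estimated no spread between genes beyond its trend with level, so its p-values are far smaller than 2 libraries of each construct and letter would give alone. With the treatment term left out there were 4, and 3 histone rows were called higher in A in SE cells (0.890% of all genes) and 11 in WT cells (11.4% of all genes). With equal library medians, 5 were called higher in A in SE cells (9.80% of all genes) and 8 in WT cells (19.7% of all genes), all higher in A, with medians of 0.54 and 0.32 against -0.02 and 0.00 over all genes. Leaving out 1 library changed the SE count to between 2 and 9, with 2 without SE DOX A or SE DOX B (25.1% and 25.4% of all genes), 7 without SE vehicle A or SE vehicle B (73.1%) and 9 without any 1 WT library (6.59% to 6.69%). The WT count moved to between 5 and 16, with 5 without WT vehicle A (6.09%), 6 without WT vehicle B (6.15%), 10 without any 1 SE library (64.2% to 64.4%) and 16 without WT DOX A or WT DOX B (4.21% and 4.17%).

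The A minus B difference was itself compared between the constructs, a comparison chosen after the values had been seen. In SE less WT, 10 of 24 rows were called, against 74.0% of all genes, at medians of -0.37 and -0.49. HIST1H4J stood at -1.35 ± 0.13 (interval -1.62 to -1.09) and HIST1H4K at -1.33, called in 18 of 18 alternatives, and HIST2H2AC at -0.88, likewise in 18 of 18. With equal library medians these were -0.89, -0.86 and -0.42, and the median of all histone rows was 0.10 against -0.03 over all genes. The count fell to 4 without WT vehicle A or WT vehicle B (10.5% and 10.6% of all genes) and to 6 without any 1 of the 4 DOX libraries (6.95% to 64.4%).

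Genes that act on histone mRNA were looked at beside their targets. None of the lists used, 37 factors of histone transcription and mRNA processing, 25 histone chaperones, 30 S-phase genes and 11 replacement histones of which 8 were tested, had a called gene for DOX or in the SE against WT comparisons within 1 treatment. Their medians for SE less WT averaged over treatments were -0.46, -0.50, -0.55 and -0.36, with 29, 22, 24 and 1 genes called, each lower in SE, beside -0.43 and 60.1% over all genes. SLBP stood at -0.56 (limma adjusted p = 0.0402) and NPAT at -0.36 (limma adjusted p = 0.0449), which turned to 0.04 with equal library medians, while HMGN1 was not called at 0.23. The genes of smallest p were the poly(A) polymerase gene PAPD5 at -0.53 and CCNE2, which encodes a cyclin E, at -0.67 among the factors. ASF1A at -0.69 and HIRA at -0.60 were those among the chaperones, CLSPN at -0.53 came with CCNE2 among the S-phase genes, and H2AFZ, encoding the variant H2A.Z, was at -0.50. CENPA, the centromeric H3 variant, was not called at -0.38 and turned to 0.03 with equal library medians.
Between A and B in SE cells the called genes of these lists were lower in A, while 9 of the 11 called histone rows were higher. Of the factors 29 of 37 were called, of the chaperones 21 of 25, of the S-phase genes 28 of 30 and of the replacement histones 2 of 8, each lower in A, with medians of -0.32, -0.39, -0.44 and -0.25, beside -0.27 and 55.0% called lower over all genes. SLBP was at -0.39, NPAT at -0.37 and CCNE1, which encodes the other cyclin E, at -0.47. ELAVL1, an RNA-binding protein, was at -0.52, the chaperone genes TONSL and CHAF1B were at -0.76 and -0.62, ORC1 of the origin recognition complex was at -0.64, and H2AFY, encoding macroH2A, and CENPA were at -0.52 and -0.32. In WT cells 18, 7, 9 and 1 genes of these lists were called, each higher in A, with medians of 0.26, 0.24, 0.23 and 0.01, beside 0.22 and 38.5% called higher over all genes; the shares of the chaperones, 28%, and of the S-phase genes, 30%, lie below that. CCNE1 was at 0.77, LSM11, a subunit of the U7 particle that cleaves histone mRNA, at 0.62, SLBP at 0.33 and NPAT, not called, at 0.11, which turned to -0.10 with equal library medians. The importin IPO4 and the chromatin remodeller ATRX were at 0.47 and 0.31, and GINS2 of the replicative helicase was at 0.41. H3F3A, encoding H3.3, was at 2.76, and the linker variant gene H1FX, not called, was at -0.13. The values of H3F3A in single libraries are not given here. For DOX in WT cells the highest of the replacement histones reached 2.57 without a call, at a list median of -0.04. In the unnormalized table SLBP was 104 and 105 FPKM in SE DOX A and SE vehicle A against 114 and 117 in SE DOX B and SE vehicle B, and 126 and 129 in A against 116 and 121 in B of WT. The summed spike-in FPKM before normalization also differs between the letters, at 10042 and 7761 in A against 7819 and 7228 in B of SE and 5733 and 5675 in A against 6748 and 6657 in B of WT, and its part in these differences was not tested.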

How the data were processed

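RNA of 8 NALM6 libraries was sequenced. Tools named in the submitters' processing notes are HISAT and Cufflinks 2.0.0, with hg19 as the build. The authors deposited 2 tables of FPKM, 1 unnormalized and 1 normalized, with 23713 rows including 92 spike-ins; the method of normalization is not given in any source at hand. The 94 histone values at 0 of 576 stand at 0.0935 to 0.111 in the normalized table. The files hold no read counts; fragments were recovered from the steps of the unnormalized FPKM.

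Groups and letters came from the labels. limma 3.58.1 in R 4.3.3, its trend option on, modelled log2(normalized FPKM + 0.1) of genes with a mean of at least 1, spike-ins left out: by the 4 group means for DOX and construct, and by construct and letter plus treatment for A against B. The fits were tested on simulated data with independent noise and no shift of whole libraries. That checks whether added differences are recovered, not the calls made here. Where a letter marks the same culture, its libraries are not independent.

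Members and lists were chosen with earlier results of these data known. Rows named are the 3 highest of each family, the 3 of smallest p per comparison and every called one; list genes are HMGN1, SLBP, NPAT and the 2 of smallest p per list, given only for comparisons with a called list gene, and not repeated for the difference between constructs. Alternatives were the unnormalized table, 1 spike-in factor per library, equal library medians, a pseudocount of 1, no filter or a mean of at least 5, small RNA names left out, robust eBayes, each library left out, a replicate block and fits with fewer terms or libraries. GENCODE and RefSeq coordinates are of another build than the files, so they describe sequences only.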

Additional observations from a re-analysis of the deposited data

Results flagged for a closer look

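The difference between A and B libraries itself differed between SE and WT cells for 10 histone rows, by a test of that difference in limma with an adjusted p under 0.05. As log2 A minus B in SE less that in WT, it was -1.68 for HIST1H3H, -1.35 for HIST1H4J, -1.33 for HIST1H4K, -0.88 for HIST2H2AC, 0.86 for HIST1H4H, -0.73 for HIST2H2BC, -0.49 for HIST1H2BL, -0.40 for HIST1H2BK, -0.39 for HIST2H2AA4 and -0.36 for HIST2H2AA3. The median over all genes was -0.49, and 74.0% of all genes were called. With equal library medians, where 33.3% of all genes were called, HIST1H4J, HIST1H4K and HIST2H2AC kept the call. The rest of these rows lost it, with HIST1H3H at a limma adjusted p of 0.134 and HIST1H4H at 0.0904. The comparison was chosen after seeing the data, and it compares libraries of replicate A and B, not a treatment.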

How the results depend on the processing

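The letters gave 2 pairs a construct, too few to establish pairing: deviations of A from B correlated at 0.739 between SE DOX and SE vehicle and 0.767 between WT DOX and WT vehicle, but at 0.0443 between SE DOX and WT DOX and 0.0325 between SE vehicle and WT vehicle. With a replicate block, 4 of 24 histone rows were called for DOX in SE cells (16.7%, against 14.5% of all genes), 2 for the difference of the DOX effects (8.33% against 1.98%) and 0 for DOX in WT cells (1.58% of all genes); with the block, small RNA names left out and equal medians there were 0 in each. Blocking on the letter left 1 for SE less WT averaged (4.17% against 1.59%).

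With rescaled libraries the median of all genes was -0.03 to 0.01 in the comparisons that follow, and without the filter -0.09 with vehicle and -0.14 averaged and for the difference between constructs. At a mean of at least 5 it was -0.29 for A less B in SE cells, 0.22 in WT cells and -0.52 for their difference. For SE less WT with vehicle, the median was -0.17 in the unnormalized table and -0.18 with equal medians, without the filter, and with small RNA names left out and equal medians; small RNA names left out gave 1 call and robust eBayes 2. With DOX the median was -0.02 unnormalized and with equal medians and -0.01 with both changes; the calls were 3 and 8. Averaged, calls were 0 unnormalized, with equal medians, with both changes and without the filter, 5 of 7 at a mean of at least 5 (71.4%, against 73.2% of all genes) and 16 without small RNA names (66.7% against 69.5%). The medians were -0.10, -0.13, -0.13 and -0.23 in the first 4 of these. CENPA turned to 0.03 in the 3 rescalings and NPAT to 0.05, 0.04 and 0.05.

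For A less B in WT cells, calls were 5 unnormalized (37.2% of all genes), 8 with equal medians (35.3%) and 7 of 7 at a mean of at least 5 (40.8%), with medians of 0.32, 0.32 and 0.80, and 0.32 with both changes; NPAT turned to -0.11, -0.10 and -0.10. In SE cells, calls were 4 unnormalized (29.6% of all genes), 7 with a spike-in factor (35%), 5 with equal medians (27.6%), 1 of 7 at a mean of at least 5 (64.4%) and 3 without the treatment term (8.83%). The median was 0.54 with equal medians, 0.55 with both changes and 0.07 at a mean of at least 5, and HIST2H2AC turned to 0.02. For the difference between constructs, calls were 3 unnormalized (35.2% of all genes), 4 with equal medians (33.3%), 6 of 7 at a mean of at least 5 (80%) and 5 without the treatment term (41.2%), with medians of 0.09, 0.10 and -0.73 in the first 3, 0.11 with both changes and -0.01 without the filter. There, HIST1H2BK turned to 0.08, 0.07 and 0.07, HIST2H2AA3 to 0.12, 0.11 and 0.11, HIST2H2AA4 to 0.09, 0.08 and 0.09, CENPA to 0.10, 0.09 and 0.10 and HMGN1 to 0.41, 0.40 and 0.41. The cause was not tested.

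Leaving out 1 library gave medians of -0.21 to 0.08 for DOX in SE, -0.34 to 0.48 for DOX in WT and -0.44 to 0.34 for their difference, with 0 calls. SE less WT had -0.80 to -0.31 with DOX (0 to 2 calls), -0.78 to -0.05 with vehicle (0 to 1) and -0.65 to -0.32 averaged (0 to 15). A less B had 0.07 to 0.29 in SE (2 to 9), 0.47 to 0.82 in WT (5 to 16) and -0.42 to -0.09 for the difference (4 to 8). HMGN1 in that difference turned to 0.07 without SE DOX A or SE DOX B and was called at -0.19 without SE vehicle A or SE vehicle B. Among the values of named genes, 1217 kept direction and call, 489 lost the call, 40 gained one, 29 reversed and 6 moved. Most rows rest on under 50 fragments a library, which limits what could be detected.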
